A study of Mus musculus with 12 samples.

Results

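The genes examined were 41 interferon-stimulated genes of the mouse, chosen by name as the rows of the count table whose symbol was on a list written with earlier results of these data known. They made up 41 of the 28293 genes in the table. Poly(A) RNA of osteoclast precursor cells had been sequenced in 12 libraries, 6 from cells given RANKL with dexamethasone (RANKL+Dex) and 6 from cells given RANKL alone (RANKL). All cells were wild type and came from the bone marrow of male C57BL/6J mice aged 6 months, and they had been kept for 3 days in 10 ng/ml of the macrophage growth factor M-CSF before RANKL was added. RANKL+Dex cultures received 25 ng/ml RANKL and 10 nM dexamethasone for 24 h, and RANKL cultures received 25 ng/ml RANKL for 24 h. The protocols do not make clear whether these hours came after a first day in RANKL. Each group held batches 1 to 6 as given in the labels, with 1 library per group in each batch, so that the 2 groups can be compared within a batch.

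RANKL is the cytokine that turns marrow macrophages into osteoclasts, the cells that resorb bone, and dexamethasone is a synthetic glucocorticoid that acts through the glucocorticoid receptor. Type I interferons bind a receptor made of the chains IFNAR1 and IFNAR2, which signals through the kinases JAK1 and TYK2 to a complex that includes STAT2 and IRF9. That complex binds interferon-stimulated response elements and switches on genes whose products sense, cut or trap viral RNA and proteins. In mouse osteoclast precursors, RANKL itself is known to induce a small amount of interferon-beta, which restrains further differentiation.

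Library totals lay between 16820193 and 28523595 counts in RANKL+Dex and between 17674405 and 25451498 counts in RANKL. Levels are given as CPM, read counts per library size scaled by TMM factors. The labelled cell type was checked against 11 osteoclast lineage genes, of which 11 passed the filter on low counts and whose summed level was 49504 to 53362 CPM in RANKL+Dex and 47927 to 52020 CPM in RANKL. By the edgeR test, 5 of these genes were higher in RANKL+Dex and 1 was lower, and Calcr, the calcitonin receptor gene, had the largest difference, at 1.48 on the log2 scale (adjusted p = 1.26e-09). A log2 fold change sets RANKL+Dex over RANKL and is positive where RANKL+Dex was higher. In bulk samples such as these, fewer cells of a type and less RNA per cell cannot be told apart.

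In RANKL+Dex a small, mostly weakly expressed group of interferon-stimulated genes was lower and 1 of their relatives, Oasl1, was higher. The receptor chains and the abundant members differed little or not detectably. Of the 41 genes, 32 had enough counts to be tested, 9 fell below the filter on low counts, and none was missing from the table. By the quasi-likelihood test of edgeR, with 0.05 as the threshold on the adjusted p, 7 of the 32 were lower in RANKL+Dex (Ifit2, Rsad2, Oas3, Oas2, Gbp2, Irf7 and Adar), 1 was higher (Oasl1) and 24 did not pass. Of all tested genes, 15.5% passed in either direction, 7.55% lower and 7.98% higher, against 21.9% of the 32 genes lower. Of the 32 genes, 5 were called and at least 2-fold lower, against 0.675% of all tested genes. All 5 averaged under 5 CPM, a level at which 71 of all 4073 tested genes were called and fell this far. The list was written with earlier results known, and Ifit2 and Gbp2 entered the test through the RANKL group alone. These counts therefore describe the list and are no support for its direction. The median log2 fold change of the 32 was −0.13 and 24 of them had a negative value, against a median of −0.00 and 51.0% negative values over all tested genes.

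**Figure D1:**
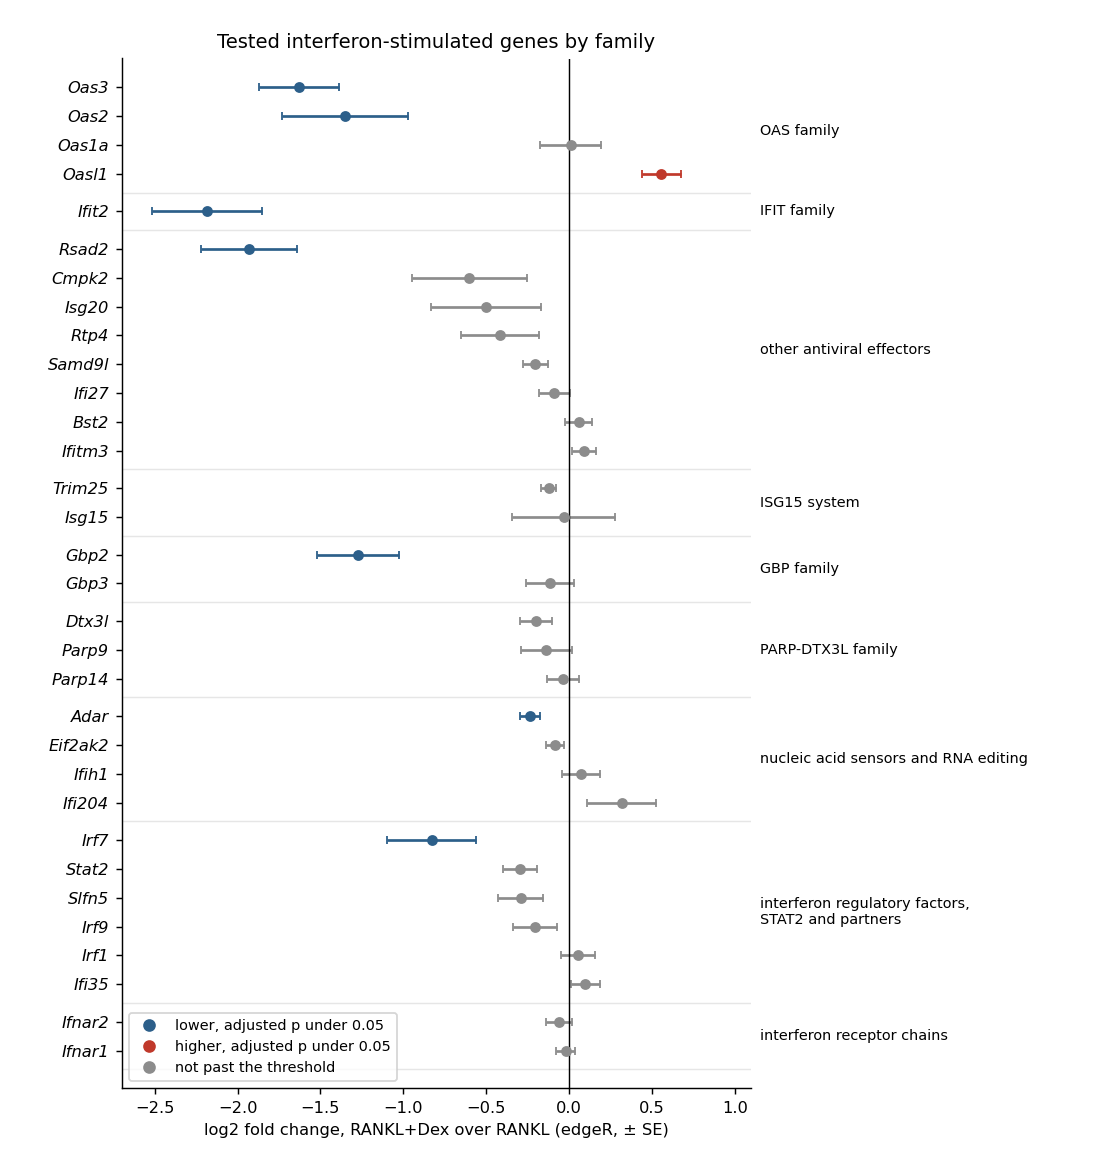
Log2 fold change (x axis, RANKL+Dex over RANKL, edgeR, bars ± SE) of the 32 tested genes, grouped by family down the page. Blue points were lower and the red point higher at an adjusted p under 0.05, and Oasl1, at 0.56, stands opposite to Oas3 and Oas2, at −1.63 and −1.35, within the OAS family.

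Except for Adar, the genes called without the batch block were weakly expressed. With levels split at 5 and 20 CPM, limits chosen after the values were seen, 13 of the tested genes averaged under 5 CPM over the 12 libraries, and of these 6 were lower and 1 was higher, against 8.27% of all 4073 tested genes at that level called in either direction. None of the 11 genes between 5 and 20 CPM passed, where 12.1% of all genes at that level did. Of the 8 genes at 20 CPM or more, Adar alone passed, where 21.3% of all genes did. With batch as a block, 6 genes under 5 CPM were lower, 2 between 5 and 20 CPM (Stat2 and Slfn5) and 3 at 20 CPM or more (Adar, Samd9l and Trim25). Among all tested genes, the block fit called 274 of 4073 lower under 5 CPM. It called 320 of 2918 lower between 5 and 20 CPM and 941 of 6784 at 20 CPM or more. The filter itself shapes these counts. It asks for about 0.492 CPM in 6 libraries, and Ifit2 and Gbp2 reached that level in 6 RANKL libraries and in 0 RANKL+Dex libraries, so they entered the test through the RANKL group. Rsad2 reached it in 2, Cmpk2 in 3 and Oas2 in 4 RANKL+Dex libraries, each with 6 RANKL libraries. Passing through one group favours genes that are higher in it. Counts over the tested genes, above, here and below, therefore describe the list and do not stand as support for its direction. Oas3, Irf7, Adar and Oasl1 reached the level in all 12 libraries, as did 25 of the 32 genes.

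**Figure D2:**
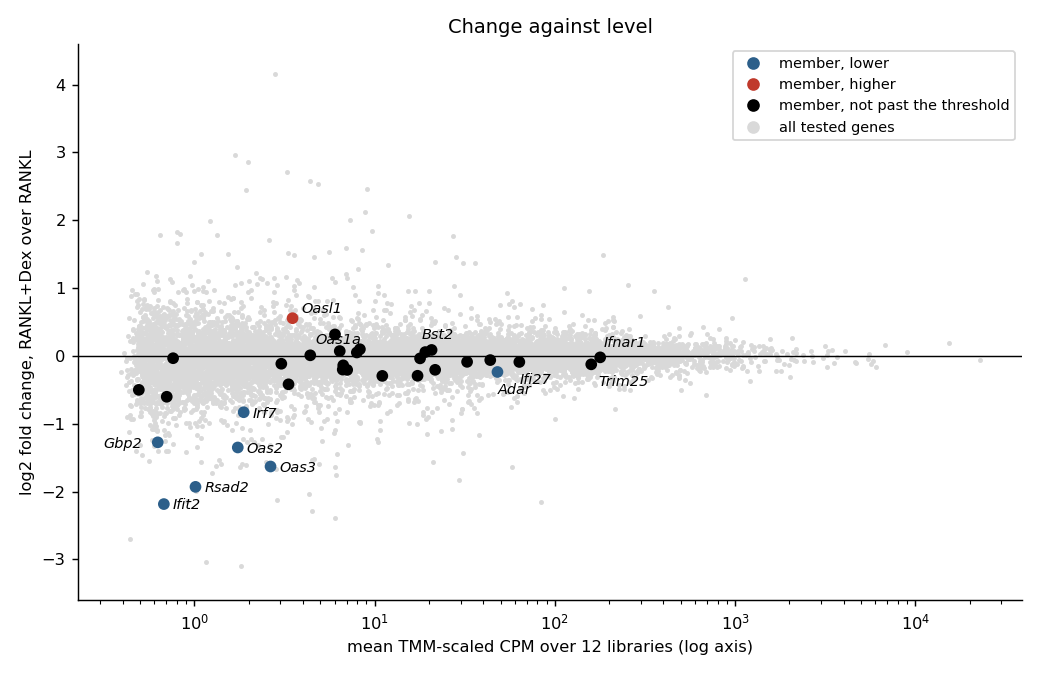
Log2 fold change (y axis, RANKL+Dex over RANKL) against the mean level over 12 libraries (x axis, TMM-scaled CPM, log axis) for all 13775 tested genes in grey and the 32 interferon-stimulated genes in colour. The lower genes other than Adar sit under 5 CPM, and Ifnar1 and Trim25 sit at the abundant end near 0.

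Some markers of other cells moved with the groups beside these counts. Levels are summed CPM, while the exact permutation tests used each list's share of all counts in a library. The summed level of the neutrophil markers was 19.4 to 30.9 CPM in RANKL+Dex and 40.1 to 79.3 CPM in RANKL, with 7 of 7 tested markers lower (exact permutation test, adjusted p = 0.0184 over 17 measures). That of endothelial markers was 32.1 to 38.8 CPM in RANKL+Dex and 43.1 to 54.6 CPM in RANKL, with 3 of 5 tested markers lower (exact permutation, adjusted p = 0.0184). Mast cell and basophil markers summed to 1.12 to 2.19 CPM in RANKL+Dex and 0.340 to 1.23 CPM in RANKL (exact permutation, adjusted p = 0.0368). The 1 tested marker, Gata2, was higher and gave 1.55 of a mean of 1.63 CPM in RANKL+Dex and 0.786 of 0.875 CPM in RANKL. Of the others, Cpa3 had 2 counts and Mcpt8 4 counts in each group. Prss34 and Ms4a2 each had 0 in RANKL+Dex and 3 in RANKL, and Cma1 had 3 in RANKL+Dex and 0 in RANKL. The summed level of the macrophage and monocyte markers was 3610 to 4344 CPM in RANKL+Dex and 3482 to 4184 CPM in RANKL (exact permutation, adjusted p = 0.881), with 4 of 10 markers lower and 1 higher by the edgeR test. The lower ones were Ly6c2, Cx3cr1, Ccr2 and Itgam, with log2 fold changes of −2.13, −1.72, −1.31 and −0.42 (adjusted p of 0.000235, 0.00195, 0.000154 and 0.00432), and Mertk was higher, at 0.96 (0.00272). The part of these markers in the results was not tested. Plasmacytoid dendritic cells, a strong source of interferon, have Siglech as a defining marker, and it had 2 counts in RANKL+Dex and 3 in RANKL. The summed level of their marker list, which includes Bst2, was 63.8 to 77.5 CPM in RANKL+Dex and 73.4 to 77.2 CPM in RANKL (exact permutation, adjusted p = 0.0859). Of the 4 tested markers on that list, 1 passed: Lair1 was lower, at −0.31 on the log2 fold scale (edgeR adjusted p = 0.00976). Genes for cytosolic ribosomal proteins took 2.61% of counts in RANKL+Dex and 2.36% in RANKL (exact permutation, adjusted p = 0.0859), and 38 of the 81 tested were higher and 0 lower by the edgeR test.

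Promoter sequence is shown for 5 genes: 3 that were lower and held the interferon response element, the 1 that was higher and 1 that did not pass. The other lower genes with a window held no match. The 5 sequences therefore do not show a link between the element and the direction of change. The windows run from 250 bases before to 50 bases after each start site, are given 5′ to 3′ on the gene's strand and come from RefSeq (GRCm38.p6), in which 31 of the 41 genes were matched. Capitals mark matches to the core of the interferon-stimulated response element, searched on both strands as GAAA, any 2 bases and GAAA. A match on the other strand reads TTTC, any 2 bases and TTTC. Oas3 lies at chr5:120777610-120777909 on the minus strand, Rsad2 at chr12:26456403-26456702 on the minus strand and Gbp2 at chr3:142620413-142620712 on the plus strand. Oasl1 lies at chr5:114922990-114923289 on the plus strand and Isg15 at chr4:156200769-156201068 on the minus strand.
Oas3: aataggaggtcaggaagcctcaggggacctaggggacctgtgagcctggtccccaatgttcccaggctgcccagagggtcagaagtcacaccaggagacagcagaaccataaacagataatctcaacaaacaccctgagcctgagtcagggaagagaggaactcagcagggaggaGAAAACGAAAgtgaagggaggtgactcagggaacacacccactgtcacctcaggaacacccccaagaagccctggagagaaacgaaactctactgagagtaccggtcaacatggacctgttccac
Rsad2: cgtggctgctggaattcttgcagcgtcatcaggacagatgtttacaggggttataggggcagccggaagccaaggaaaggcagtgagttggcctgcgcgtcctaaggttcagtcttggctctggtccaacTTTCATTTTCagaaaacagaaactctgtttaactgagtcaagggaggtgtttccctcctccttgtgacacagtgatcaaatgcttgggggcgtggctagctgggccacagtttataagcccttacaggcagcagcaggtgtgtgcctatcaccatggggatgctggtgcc
Gbp2: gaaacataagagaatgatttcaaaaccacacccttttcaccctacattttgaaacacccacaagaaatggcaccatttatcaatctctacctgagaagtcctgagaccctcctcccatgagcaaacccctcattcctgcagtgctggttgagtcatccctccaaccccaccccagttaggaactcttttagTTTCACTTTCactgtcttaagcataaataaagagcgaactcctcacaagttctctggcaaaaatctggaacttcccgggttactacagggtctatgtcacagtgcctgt
Oasl1: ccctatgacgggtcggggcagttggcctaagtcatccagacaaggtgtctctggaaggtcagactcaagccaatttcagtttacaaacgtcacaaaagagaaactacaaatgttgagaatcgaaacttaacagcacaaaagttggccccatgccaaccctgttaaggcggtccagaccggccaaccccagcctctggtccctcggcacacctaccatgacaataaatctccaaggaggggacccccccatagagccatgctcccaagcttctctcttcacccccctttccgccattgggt
Isg15: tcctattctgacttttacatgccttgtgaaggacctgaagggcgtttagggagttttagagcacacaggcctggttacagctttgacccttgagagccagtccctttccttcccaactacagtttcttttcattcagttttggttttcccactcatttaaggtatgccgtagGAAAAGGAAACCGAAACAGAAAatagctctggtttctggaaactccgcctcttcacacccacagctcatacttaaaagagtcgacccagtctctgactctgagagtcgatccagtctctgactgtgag

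The core was found in 15 of the 31 matched windows (48.4%), against 3.99% of the windows of all 27025 genes. Among the genes called lower, 6 had a window and 3 of these held the core, with its leftmost base at −75 in Oas3, −120 in Rsad2 and −59 in Gbp2 from the start site at 0. The windows of Ifit2, Irf7, Adar and Oasl1 held no match, which says only that these letters are absent from these windows. Isg15 held 3 overlapping matches at −78, −72 and −66 and did not pass the test. The gamma-activated site, TTCNNNGAA, which reads the same on both strands, was found in 11 of the 31 windows (35.5%), against 9.55% of all. The glucocorticoid response element, searched on both strands as GNACA, any 3 bases and TGTNC, was found in 0 of the 31, against 0.537% of all.

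The OAS genes encode oligoadenylate synthetases, which sense double-stranded RNA and switch on the nuclease RNase L, and their relatives the OAS-like proteins. Oas3 lies on chromosome 5 at 120891163 to 120915726, minus strand, in the coordinates of the table (GRCm39). In RANKL+Dex, Oas3 was 1.32, 1.64, 1.59, 0.851, 1.01 and 1.18 CPM in batches 1 to 6, against 4.31, 6.63, 4.31, 3.09, 2.14 and 3.72 CPM in RANKL. The highest RANKL+Dex library lay below the lowest RANKL library, and the groups did not overlap. Such a gap with RANKL+Dex lower was seen for 4 of the 32 genes and for 3.17% of all tested genes, and in either direction for 5 of the 32 and for 7.01% of all. For Ifit2 and Gbp2, 2 of the 4, the gap follows from the libraries in which they reached the filter level, so the count is a description. The log2 fold change of Oas3 was −1.63 ± 0.24 (SE, n = 6 each, edgeR adjusted p = 0.000199), so that the level fell by 67.7%. Oas2, its neighbour 3.24 kb away on the same strand (120868398 to 120887918), had a lowest, median and highest level of 0.296, 0.893 and 1.85 CPM in RANKL+Dex, against 1.05, 2.1 and 4.59 CPM in RANKL. It was lower in RANKL+Dex in 6 of 6 batches, but the ranges of the groups overlapped: the RANKL+Dex libraries of batches 1 and 2 lay above the lowest RANKL library. The log2 fold change of Oas2 was −1.35 ± 0.38 (SE, n = 6 each, edgeR adjusted p = 0.0235). This call was lost without RANKL replicate 2 (adjusted p = 0.0593) or RANKL replicate 3 (0.0570), and without batches 2, 3, 4 or 6 (0.0526, 0.101, 0.0595 and 0.0576).

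Oasl1, an OAS-like gene whose protein lacks synthetase activity and is known in the mouse to restrain translation of Irf7, moved the other way. It lies on chromosome 5 at 115061299 to 115075974, plus strand. Its level in batches 1 to 6 was 5.14, 4.41, 4.13, 3.75, 3.91 and 3.73 CPM in RANKL+Dex, against 3.18, 2.49, 2.60, 2.86, 2.87 and 3.03 CPM in RANKL. Every RANKL+Dex library lay above every RANKL library, the reverse of Oas3. The log2 fold change was 0.56 ± 0.12 (SE, n = 6 each, edgeR adjusted p = 0.00401), 47.1% higher. Oasl2, which neighbours Oasl1 at a distance of 11.003 kb on the same strand, was below the filter with 25 counts in all RANKL+Dex libraries and 86 in all RANKL libraries. Oas1a, a synthetase gene 118.6 kb from Oas3, had a lowest, median and highest level of 3.23, 4.46 and 5.38 CPM in RANKL+Dex, against 2.28, 4.53 and 6.06 CPM in RANKL. The RANKL+Dex range lay inside the RANKL range, and the log2 fold change of 0.01 ± 0.19 (SE, adjusted p = 0.984) had an interval of 2 SE from −0.36 to 0.38. The ratio of Oasl1 to Oas3 counts within a library, in which scaling and gene length cancel between libraries, ran from 2.61 to 4.40 in RANKL+Dex and from 0.376 to 1.34 in RANKL. Oasl1 and Oas3 had each separated the groups, in opposite directions, so this gap in the ratio was fixed beforehand and is only a description. The ratio of Oasl1 to Oas1a ran from 0.75 to 1.20 in RANKL+Dex and from 0.411 to 1.26 in RANKL, so that these ranges overlapped.

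**Figure D3:**
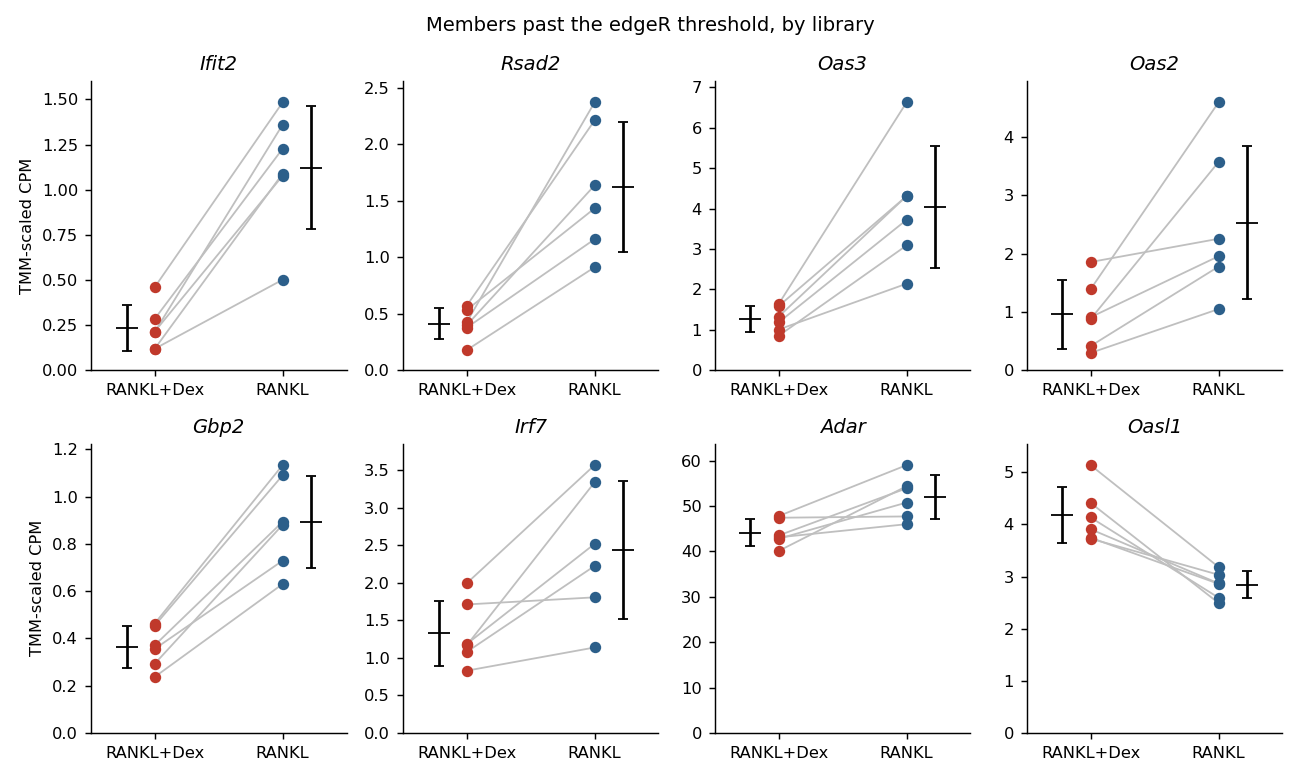
TMM-scaled CPM (y axis, from 0) of the 8 genes past the threshold in each library, RANKL+Dex in red on the left and RANKL in blue on the right, with lines joining libraries of one batch and bars for the mean ± SD (n = 6 each). Oas3, Ifit2, Rsad2 and Gbp2 do not overlap between groups, and Oasl1 does not overlap in the other direction.

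The IFIT proteins bind viral RNA that lacks the host cap methylation and block its translation. Ifit2 (chromosome 19, 34528094 to 34553819, plus strand) was the single IFIT gene with enough counts to test, at a lowest, median and highest level of 0.118, 0.213 and 0.459 CPM in RANKL+Dex, against 0.501, 1.16 and 1.48 CPM in RANKL. The groups did not overlap, although the lowest RANKL library, replicate 5, lay close to the highest RANKL+Dex library, replicate 3. The log2 fold change was −2.18 ± 0.33 (SE, n = 6 each, edgeR adjusted p = 0.000263), the most negative of the 32, and it rests on 2 to 11 counts per RANKL+Dex library and 11 to 35 per RANKL library. Ifit3, Ifit3b and Ifit1 follow Ifit2 on the same strand of chromosome 19, at gaps of 7.11, 19.2 and 27.5 kb, and their counts are given with the other genes below the filter.

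Among the other antiviral effectors, Rsad2 (chromosome 12, 26492745 to 26506451, minus strand) encodes viperin, which makes a nucleotide that ends viral RNA chains. Rsad2 had a lowest, median and highest level of 0.178, 0.411 and 0.570 CPM in RANKL+Dex, against 0.911, 1.53 and 2.37 CPM in RANKL. No RANKL+Dex library reached the lowest RANKL library, and the log2 fold change was −1.93 ± 0.29 (SE, n = 6 each, edgeR adjusted p = 0.00023). Cmpk2, a nucleotide kinase gene 12.8 kb from Rsad2 on the opposite strand, had 0.209, 0.489 and 0.961 CPM in RANKL+Dex, against 0.630, 0.752 and 1.25 CPM in RANKL. The 2 ranges of Cmpk2 overlapped and its log2 fold change of −0.60 ± 0.35 (SE) did not pass (adjusted p = 0.272). Ifi27, the most abundant gene of this family and one linked to the mitochondrial and nuclear membranes, had 47.4, 62.0 and 71.4 CPM in RANKL+Dex, against 52.1, 65.8 and 74.9 CPM in RANKL. These ranges overlapped almost wholly, with a log2 fold change of −0.09 ± 0.09 (SE, adjusted p = 0.583). The membrane restriction factors Bst2 (tetherin) and Ifitm3 had log2 fold changes of 0.06 ± 0.08 and 0.09 ± 0.07, and neither passed. Samd9l, Isg20 and Rtp4 had values of −0.20 ± 0.08, −0.50 ± 0.33 and −0.42 ± 0.24 and did not pass, although Samd9l did with batch as a block (adjusted p = 0.0159).

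Of the 3 listed genes of the ISG15 system, which tags proteins with a ubiquitin-like modifier, neither of the 2 tested passed. Usp18, below the filter, and Ube2l6, from a further list and lower at −0.69 (edgeR adjusted p = 1.82e-07), are given below. Isg15, the modifier itself, had a lowest, median and highest level of 0.568, 0.701 and 0.961 CPM in RANKL+Dex, against 0.318, 0.664 and 1.53 CPM in RANKL. Its RANKL+Dex range lay within its RANKL range, and the log2 fold change of −0.03 ± 0.31 (SE, adjusted p = 0.965) had an interval of 2 SE from −0.66 to 0.59 at this low level. Trim25, a ligase that activates the RNA sensor RIG-I, was the most abundant gene of the group, at 137, 153 and 166 CPM in RANKL+Dex, against 155, 164 and 178 CPM in RANKL. Its log2 fold change was −0.12 ± 0.05 (SE, adjusted p = 0.0744), and it passed with batch as a block (adjusted p = 0.0235).

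The GBP genes encode guanylate-binding proteins, GTPases that attack vacuoles holding pathogens, and 1 of the 2 listed here was lower. Gbp2 (chromosome 3, 142326363 to 142343769, plus strand) had a lowest, median and highest level of 0.237, 0.363 and 0.463 CPM in RANKL+Dex, against 0.630, 0.887 and 1.13 CPM in RANKL. The groups did not overlap, and the log2 fold change was −1.27 ± 0.25 (SE, n = 6 each, edgeR adjusted p = 0.00194), on 4 to 13 counts per RANKL+Dex library. Gbp3, 47.4 kb away on the same strand of chromosome 3, had 2.46, 2.91 and 3.38 CPM in RANKL+Dex, against 2.13, 3.41 and 3.66 CPM in RANKL. These ranges overlapped, and the log2 fold change of −0.11 ± 0.14 (SE, adjusted p = 0.658) had an interval of 2 SE from −0.40 to 0.17. The intervals of Gbp2 and Gbp3 did not overlap, and a test of the difference between the genes was not run.

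The PARP-DTX3L family pairs ADP-ribosyltransferases with the ubiquitin ligase DTX3L, and 0 of its 3 genes passed. Parp14, the most abundant, had a lowest, median and highest level of 12.9, 17.8 and 21.5 CPM in RANKL+Dex, against 16.8, 17.7 and 20.7 CPM in RANKL. The RANKL+Dex libraries spread on both sides of the RANKL libraries, with a log2 fold change of −0.04 ± 0.10 (SE, adjusted p = 0.853). Parp9 and Dtx3l had values of −0.14 ± 0.15 and −0.20 ± 0.10. These last genes overlap by 0.682 kb on opposite strands and no strand marking is stated, so reads from the overlap cannot be assigned to one of them.

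Of the sensors and RNA editors, 1 of 4 tested genes was lower. Adar (chromosome 3, 89622329 to 89660753, plus strand), which edits adenosine in double-stranded RNA and keeps the cell's own RNA from being sensed, had a lowest, median and highest level of 40.1, 43.3 and 47.8 CPM in RANKL+Dex, against 46.0, 52.4 and 59.0 CPM in RANKL. The ranges overlapped slightly, and Adar was lower in 6 of 6 batches. Its log2 fold change was −0.24 ± 0.06 (SE, n = 6 each, edgeR adjusted p = 0.0143), a much smaller change than that of the other lower genes, measured on 735 to 1185 counts per library. The call was lost without batch 2 (adjusted p = 0.0724) or batch 3 (0.0523). Ifih1, which encodes the RNA sensor MDA5, and Eif2ak2, which encodes the RNA-activated kinase PKR, had log2 fold changes of 0.07 ± 0.11 and −0.09 ± 0.05 and did not pass. Ifi204, of a cluster of DNA-sensing genes with near-identical copies whose reads may be split between them, had a value of 0.32 ± 0.21 (adjusted p = 0.338).

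Among the transcription factors and their partners, 1 of 6 was lower. Irf7 (chromosome 7, 140842619 to 140846394, minus strand), which amplifies interferon-alpha production, had a lowest, median and highest level of 0.829, 1.17 and 1.99 CPM in RANKL+Dex, against 1.14, 2.37 and 3.57 CPM in RANKL. The ranges overlapped, with batch 3 showing the closest pair, at 1.71 CPM in RANKL+Dex and 1.81 CPM in RANKL. The log2 fold change was −0.83 ± 0.27 (SE, n = 6 each, edgeR adjusted p = 0.0443). Of the 8 calls, this one was lost in the most settings: the adjusted p was 0.0897 by limma-voom, and the call was lost when RANKL replicate 1, 2, 4 or 6 or RANKL+Dex replicate 1, 4, 5 or 6 was left out (adjusted p of 0.0621 to 0.105), and without any single batch other than batch 5 (0.0508 to 0.144). Irf7 also overlaps Phrf1 on the opposite strand, a gene with 12431 counts in RANKL+Dex and 14040 in RANKL, against 478 counts for Irf7 in all. Stat2 and Irf9, which belong to the complex that interferon activates, had log2 fold changes of −0.29 ± 0.10 (adjusted p = 0.0631, and 0.0157 with batch as a block) and −0.21 ± 0.13. Irf9 shares its strand and an overlap with Rnf31, so its reads are uncertain too. Slfn5, the most abundant gene of this group, had 10.4, 15.7 and 19.2 CPM in RANKL+Dex, against 13.3, 19.9 and 23.6 CPM in RANKL. Its ranges overlapped widely, with a log2 fold change of −0.29 ± 0.14 (SE, adjusted p = 0.167), and with batch as a block it passed (adjusted p = 0.00136). Irf1 and Ifi35 had values of 0.05 ± 0.10 and 0.10 ± 0.09.

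No difference beyond the spread of the libraries was detected for either chain of the type I interferon receptor. Ifnar1 had a lowest, median and highest level of 153, 178 and 201 CPM in RANKL+Dex, against 162, 182 and 189 CPM in RANKL, and it was lower in RANKL+Dex in 3 of 6 batches. The RANKL range lay inside the RANKL+Dex range, and the log2 fold change of −0.02 ± 0.06 (SE, adjusted p = 0.855) had an interval of 2 SE from −0.13 to 0.09. Ifnar2 had 37.0, 40.9 and 51.1 CPM in RANKL+Dex, against 39.7, 44.7 and 51.0 CPM in RANKL. Its ranges overlapped, and the interval of 2 SE around −0.06 ran from −0.22 to 0.10. These intervals exclude a change of the size seen for Oas3 or Ifit2.

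The 9 genes below the filter were described by their counts and by exact two-sided permutation tests over the 12 libraries, for which the smallest possible p is 0.00216. Ifit3 had 7 counts in all RANKL+Dex libraries and 59 in all RANKL libraries (exact p = 0.00216), and its CPM values did not overlap between groups. Usp18, the protease that removes ISG15 and shuts down the receptor, had 5 counts in RANKL+Dex and 48 in RANKL (exact p = 0.00216) and also did not overlap. The dynamin-like GTPase gene Mx1 had 19 counts in RANKL+Dex and 78 in RANKL (exact p = 0.00866). Ifit1 had 16 counts in RANKL+Dex and 65 in RANKL (exact p = 0.0108), and Oasl2 had 25 in RANKL+Dex and 86 in RANKL (exact p = 0.0130). The groups of these last 3 genes overlapped. Ifit3b, a near-identical copy of Ifit3 whose reads may be split with it, had 1 count in RANKL+Dex and 14 in RANKL (exact p = 0.0281). Ifi44 had 1 count in RANKL+Dex and 17 in RANKL (exact p = 0.0281). The remaining genes did not differ detectably at this depth: Mx2 had 6 counts in RANKL+Dex and 15 in RANKL (exact p = 0.403), and Zbp1, a sensor of left-handed nucleic acid, had 21 in RANKL+Dex and 24 in RANKL (exact p = 0.654). These p-values are not adjusted, and 9 such tests were run. With no filter on low counts, edgeR's test over all 28293 genes called Oasl2, Ifit1, Ifit3, Mx1, Ifi44 and Usp18 lower (adjusted p of 0.0126, 0.0250, 0.00186, 0.00942, 0.0403 and 0.00105), which brought the number lower to 13 of 41. In that fit 6.77% of all genes were called in either direction and 3.39% were lower.

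**Figure D4:**
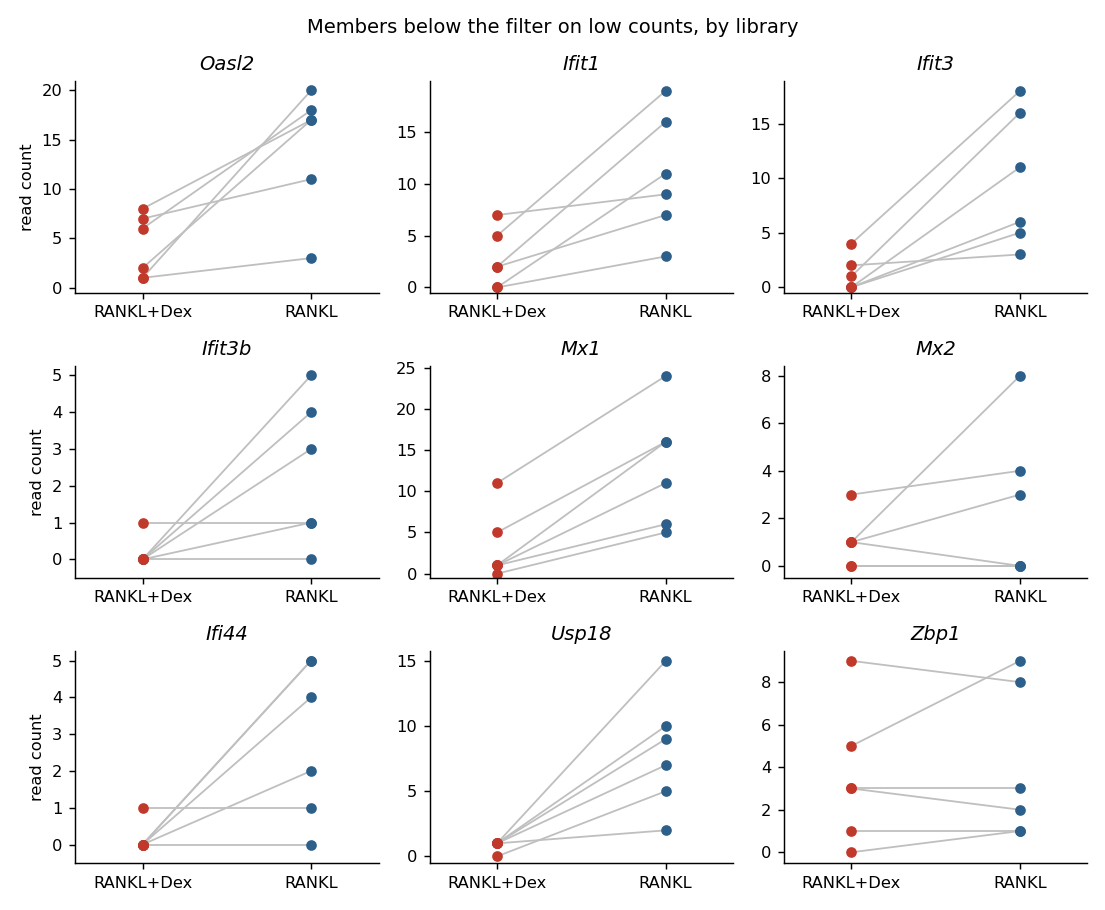
Read counts (y axis) of the 9 genes below the filter in each library, RANKL+Dex in red on the left and RANKL in blue on the right, with lines joining libraries of one batch. Usp18 has at most 1 count in any RANKL+Dex library and 2 to 15 counts in RANKL, while Zbp1 has 0 to 9 counts in RANKL+Dex and 1 to 9 in RANKL.

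The direction was also read within batches. Each of the 7 lower genes was lower in RANKL+Dex in 6 of 6 batches and Oasl1 was higher in 6 of 6. These genes had been called from the same libraries, so this is a description and no further support. Cmpk2, Samd9l, Dtx3l, Stat2 and Slfn5, which did not pass without the batch block, were also lower in 6 of 6. The share of all tested genes lower in 6 of 6 is not given here, so this too is only a description. Over the 32 tested genes, 25, 23, 24, 27, 25 and 17 were lower in RANKL+Dex in batches 1 to 6, against 49.3% to 51.8% of all tested genes in a batch. Batch 6, with 17 of 32 lower, stood nearest to that background. The genes also shared a pattern across batches within each group: replicate 2 was the highest library for 17 of the 32 genes in RANKL+Dex and for 19 in RANKL, where it was highest for 18.2% and 18.3% of all tested genes. Replicate 5 was the lowest library for 15 of the 32 genes in each group, against 20.5% of all genes in RANKL+Dex and 21.8% in RANKL. With batch as a block, edgeR called 11 of the 32 lower and 1 higher, where 21.8% of all tested genes passed in either direction and 11.1% were lower. The added genes were Samd9l, Trim25, Stat2 and Slfn5.

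**Figure D5:**
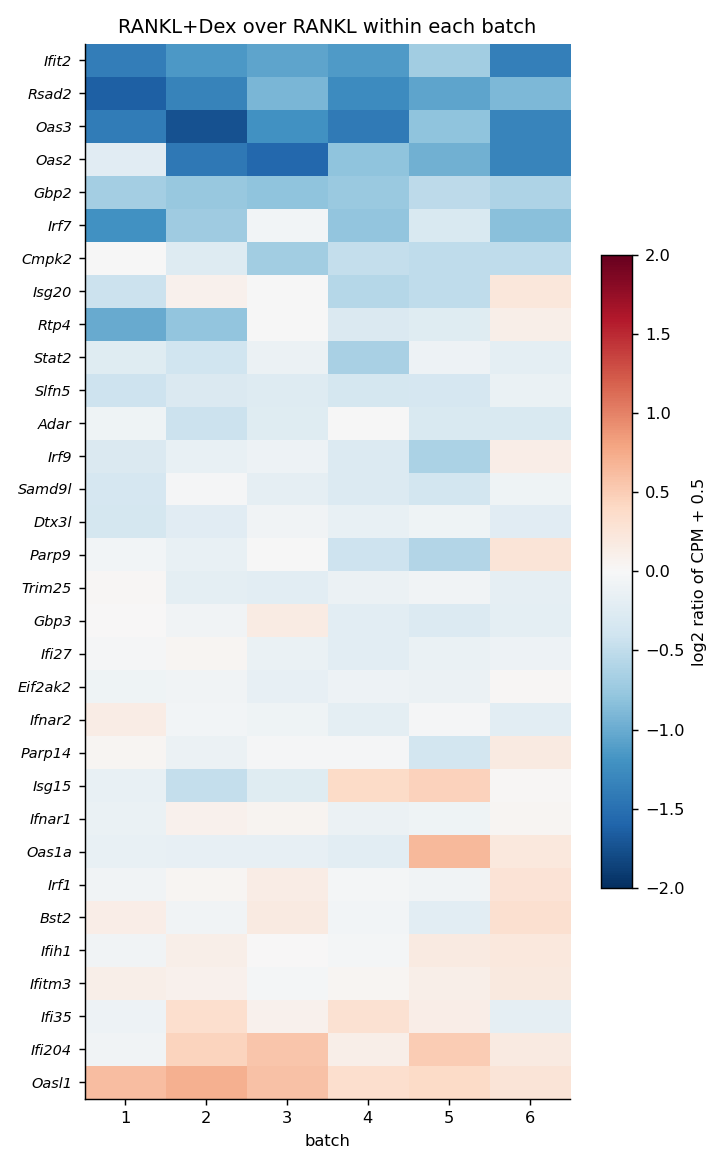
Log2 ratio of RANKL+Dex to RANKL within each batch (columns 1 to 6) for the 32 tested genes (rows, ordered by fold change), computed from CPM with 0.5 added, on a colour scale from blue (lower in RANKL+Dex) to red (higher). The 6 top rows, from Ifit2 to Irf7, are blue or near white in each batch, and Oasl1 at the bottom is red in each.

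Levels were compared between genes only per kilobase of exon, with lengths from GENCODE M21 matched by gene identifier for 41 of 41. Ifi27 was the highest at 42.0 CPM per kb in RANKL+Dex and 44.7 in RANKL. Next came Ifitm3, at 31.5 CPM per kb in RANKL+Dex and 29.7 in RANKL, Ifnar1 at 29.8 in RANKL+Dex and 30.3 in RANKL, and Trim25 at 26.5 in RANKL+Dex and 28.9 in RANKL. Ifitm3 and Ifnar1 changed places between the groups, so their order is not settled. Bst2 and Ifnar2 followed at 21.6 and 12.9 CPM per kb in RANKL+Dex, against 20.8 and 13.5 in RANKL. The lower genes Oas3, Rsad2 and Ifit2 stood far below. Oas3 had 0.179 CPM per kb in RANKL+Dex and 0.571 in RANKL, Rsad2 had 0.0952 in RANKL+Dex and 0.373 in RANKL, and Ifit2 had 0.0597 in RANKL+Dex and 0.286 in RANKL. Oasl1 stood above Oas3 and Oas2 in both groups on this scale, at 1.60 CPM per kb in RANKL+Dex and 1.09 in RANKL. Ifi44 was the lowest of the 41, at 0.00144 CPM per kb in RANKL+Dex and 0.0225 in RANKL.

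The rest of the pathway was read from lists of further genes, whose counts stand beside the shares over all tested genes of 7.98% higher and 7.55% lower, or 10.6% higher and 11.1% lower with batch as a block. Interferon ligands were barely detected: of 21 genes looked for, 6 had a row in the table, none passed the filter, and together they had 10 counts over the 6 RANKL+Dex libraries and 11 over the 6 RANKL libraries, with at most 3 in one library. Among 13 tested genes of the other receptors and the JAK-STAT signal, 1 was higher and 1 lower. With batch as a block 3 were higher and 1 lower, the added genes being the interferon-gamma receptor chains Ifngr1 and Ifngr2 (adjusted p of 0.0308 and 0.0275 by edgeR). Socs3, a feedback inhibitor of cytokine receptors, averaged 4.98 ± 1.49 CPM in RANKL+Dex and 3.09 ± 0.340 CPM in RANKL (SD, n = 6 each), 0.71 higher on the log2 scale (edgeR adjusted p = 0.00908). Tyk2, a kinase of the type I receptor, averaged 83.8 ± 6.37 CPM in RANKL+Dex and 95.1 ± 3.35 CPM in RANKL, −0.18 on the log2 fold scale (edgeR adjusted p = 0.0164). Ptpn6, the phosphatase SHP-1 and the most abundant of this list, had a log2 fold change of −0.01. None of 6 tested interferon regulatory factors and their binding proteins passed, with 2 (Irf5 and Irf8) lower under the batch block, and the most abundant, Irf2bp2, had a log2 fold change of −0.06.

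Of 13 nucleic acid sensing genes, 3 were lower and 1 higher, and with batch as a block 6 were lower and 1 higher. Samhd1, which degrades deoxynucleotides, averaged 114 ± 5.39 CPM in RANKL+Dex and 138 ± 10.7 CPM in RANKL (SD, n = 6 each, edgeR adjusted p = 0.000925). Cgas, the DNA sensor that makes cyclic GMP-AMP, averaged 3.12 ± 0.693 CPM in RANKL+Dex and 4.67 ± 0.571 CPM in RANKL (edgeR adjusted p = 0.00935). Tbk1, the kinase that activates IRF3, was higher by 0.13 on the log2 scale (edgeR adjusted p = 0.0363). The most abundant, Unc93b1, had a value of −0.31 that passed with batch as a block (adjusted p = 0.102 without it and 5.84e-05 with it), as did Mavs and Ikbke (0.0268 and 0.000226 with it). Among 7 further GBP and IRG GTPases, 1 was lower: Gbp9 averaged 1.24 ± 0.240 CPM in RANKL+Dex and 2.15 ± 0.267 CPM in RANKL (edgeR adjusted p = 0.00456), while the most abundant, Gbp7, had a log2 fold change of 0.03. Among 12 other PARP genes 1 was higher: Parp12 averaged 59.0 ± 2.66 CPM in RANKL+Dex and 49.2 ± 1.70 CPM in RANKL (edgeR adjusted p = 0.000254), and the most abundant, Zc3hav1, had a value of 0.06. Parp3 was also higher with batch as a block (adjusted p = 0.0329). Oas1b, the single tested gene of the remaining OAS and IFIT genes, had a log2 fold change of 0.70 that did not pass (adjusted p = 0.0651).

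Of 48 other interferon-stimulated genes, 7 were higher and 4 lower. The lower ones made up 8.33%, close to the 7.55% over all tested genes. In either direction 22.9% passed, against 15.5% of all tested genes, and more of them were higher than lower. With batch as a block Lgals9 and Tap1 joined the lower genes, for 6 lower and 7 higher. Ube2l6, the conjugating enzyme for ISG15, averaged 25.3 ± 1.76 CPM in RANKL+Dex and 40.8 ± 1.93 CPM in RANKL, or −0.69 on the log2 fold scale (SD, n = 6 each, edgeR adjusted p = 1.82e-07). Rnf213 was lower as well, with a value of −0.27 (edgeR adjusted p = 0.000693). Ifi207 and Tdrd7 were higher, by 0.34 and 0.33 on the log2 scale (adjusted p of 0.000428 and 0.000682 by edgeR). Ifi30, a lysosomal thiol reductase and the most abundant of the list, averaged 836 ± 56.2 CPM in RANKL+Dex and 752 ± 44.2 CPM in RANKL (edgeR adjusted p = 0.0368).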

How the data were processed

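The table deposited by the authors holds raw read counts per gene for 28293 genes in 12 libraries, and each column bears the library name that a sample's description gives. Per the submitters' processing notes, the build was GRCm39 and the tools were HISAT2 2.1.0, DESeq 1.28.0, FastQC 0.11.5 and StringTie 1.3.3b. The program and annotation used for counting were not given in the sources used here. The labels' protocols state no strand marking, so reads shared by overlapping or near-identical genes are uncertain.

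Genes were kept with filterByExpr (minimum count 10, minimum total 15) and 13775 were tested with edgeR 4.0.16 (quasi-likelihood, TMM factors, R 4.3.3), two-sided, RANKL+Dex over RANKL, with Benjamini-Hochberg adjustment over all of them and a threshold of 0.05. The SE was derived from the F statistic, and the fit was tested on simulated data. For each of 30 pairs of libraries within a group, the chi-square statistic per gene was 3.05 or more (17.7 at most), so none differed by sampling noise alone. The design text speaks of biological replicates and the extraction protocol of triplicates, and neither says whether cultures came from separate mice, so the p-values reflect only differences among these cultures, which may be technical. Shared batch numbers in the labels pair the libraries: deviations from the group means correlated at 0.165 on average between libraries of one batch, against −0.0329 for different numbers, and 3 of 6 exceeded 0.1. Genes whose call changed with batch as a block are named, in places without their adjusted p. The members, families and further gene lists were chosen with earlier results of these data known. Named were all members by family, with values for those past the threshold, the OAS genes, the receptor chains and the most abundant gene of each family. From each further list up to 2 higher and 2 lower genes with the smallest p among those called, and the most abundant, were named. Some genes past the threshold in those lists are given as counts only. Alternatives were other scaling (DESeq2 1.42.0 size factors, upper quartile), DESeq2 and limma-voom (limma 3.58.1) tests, other filters, the batch block, and leaving out each library or batch.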

Additional observations from a re-analysis of the deposited data

Results flagged for a closer look

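In 82 groups of 6 libraries (41 genes in each group of libraries), 6 held 1 library standing apart from the others, where chance alone gives about 1 in 20. The gap of that library to its nearest neighbour, as a share of the range, was above Dixon's critical value for 6 samples. Ifitm3 was 24.6 CPM in RANKL+Dex replicate 2, against 20.2 to 21.2 CPM in the other RANKL+Dex libraries. Irf1 was 10.7 CPM in RANKL+Dex replicate 6, against 7.48 to 8.10 CPM in the others. Ifih1 was 4.55 CPM in RANKL replicate 5, against 6.36 to 6.99 CPM in the others. The remaining 3 rest on 1 to 3 counts: Ifit3b was 0.0418 CPM in RANKL+Dex replicate 3 (1 count), Ifi44 was 0.0530 CPM in RANKL+Dex replicate 1 (1 count) and Mx2 was 0.170 CPM in RANKL+Dex replicate 4 (3 counts). None of the 6 genes was among those past the threshold.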

How the results depend on the processing

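The number of genes called lower was 7 as reported, 13 with no filter on low counts, 4 with at least 1 CPM in 6 libraries, which left Ifit2, Rsad2 and Gbp2 untested, and 11 with batch as a replicate block. Leaving out 1 library gave 5 to 9, and leaving out 1 batch gave 3 (batch 3) to 9 (batch 5). Oasl1 was the single gene called higher in each of the 25 alternatives. Calls over the whole table ran from 1626 to 2493 without 1 library and from 1339 (batch 4) to 2278 (batch 1) without 1 batch, with 1409 without batch 6. The block brought them to 3000. The median log2 fold change of the tested genes stayed between −0.21 and −0.10. Oas3, Oasl1, Ifit2, Rsad2 and Gbp2 passed in each alternative that gave them a value, but Ifit2 had one in 20 of 25 and was also untested without RANKL replicate 1, 3 or 4 or batch 3. None of the 8 called genes changed sign. Of 780 values of single genes, 25 did, in genes near 0 that did not pass (ranges without 1 library, then without 1 batch): Isg15 (0.11 by limma-voom, −0.20 to 0.25 without 1 library, −0.18 to 0.15 without 1 batch), Oas1a (−0.13 to 0.12 and −0.09 to 0.05), Parp14 (−0.097 to 0.038 and −0.085 to 0.016), Ifnar1 (−0.060 to 0.019 and −0.043 to 0.0024), Irf1 (−0.036 to 0.086 and −0.0026 to 0.082), Ifih1 (−0.0054 to 0.13 without 1 library) and Bst2 (−0.0012 to 0.099 and −0.00079 to 0.11). Searched on the strand of the gene alone, the interferon response core was in 8 of the 31 windows in place of 15. Beyond the genes that each filter admits, the cause of these shifts was not tested. Counts of 2 to 61 per library limit the precision for Ifit2, Rsad2 and Gbp2.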
